A study of Mus musculus with 16 samples.

Results

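Blastocysts treated with SP600125, used as an inhibitor of the JNK kinases, were compared with blastocysts treated with U0126, used as an inhibitor of MEK. The members are 6 of the 12 samples of the study, 3 per inhibitor, chosen by their labelled treatment, and they were read on 8 of its 16 arrays. The study measured messenger RNA in mouse blastocysts on Affymetrix arrays. SP600125 was given at 25 µM and U0126 at 20 µM, so the doses differ. The remaining 6 samples include 3 blastocyst samples titled WT and without a named treatment, here called controls. The other 3 were treated with 20 µM SB203580, an inhibitor of p38 kinases. These 6 samples entered the model for its estimate of spread, and the difference between SP600125 and U0126 takes no value from them. The labels name no solvent for the controls, no mouse strain and no duration of treatment. Replicate 1 of each group was labelled by a small-sample assay and read on a 430A and a 430B array, and replicates 2 and 3 were labelled in 2 cycles and read on the 430 2.0 array. Whether replicates came from separate cultures is not said in the labels. The p-values therefore reflect only how far these samples spread, which may be technical.

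In the blastocyst an outer epithelium, the trophectoderm, surrounds a cavity and the inner cell mass, whose cells become epiblast or primitive endoderm. FGF4 secreted by epiblast cells acts through FGF receptors, RAS, RAF, MEK and ERK, and high ERK activity favours primitive endoderm, marked early by GATA6, over epiblast, marked by NANOG. JNK kinases form a parallel branch of the MAP kinase family that phosphorylates JUN and answers to stress and cytokines. SP600125 competes with ATP in the JNK active site, whereas U0126 binds MEK outside its ATP site.

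Signals below are the deposited array intensities, listed for replicates 1, 2 and 3, and only signals of replicates 2 and 3 share an array type. Differences are log2 SP600125 minus U0126 from limma, with the standard error and n = 3 samples per group, after 12.6 was added to each signal. This constant understates the difference of dim probe sets. Positive values mean a higher level with SP600125. Adjusted p-values are limma's after Benjamini-Hochberg adjustment over 27022 tested probe sets, and a call is an adjusted p under 0.05.

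Of the tested probe sets 791 were called, or 2.93%, with 389 higher with SP600125 (1.44%) and 402 lower (1.49%). By gene, represented by its brightest probe set, 242 of 12614 genes were higher (1.92%) and 262 lower (2.08%), and these shares are the background for the counts of gene groups below. Differences of at least 2-fold made up 286 of the 791 calls and differences of at least 4-fold 61, of which 38 were higher and 23 lower with SP600125. Signals of the inhibitors did not overlap within either array type for 7657 tested probe sets (28.3%), and all 791 called probe sets were among them. The split between directions depended on the scaling. The median signal of the 430 2.0 arrays was 61.5 and 66.5 with SP600125 and 77.7 and 83.0 with U0126. After centring every array on its median, 557 probe sets were called higher and 112 lower, and the median difference of all tested probe sets moved from -0.07 to 0.09. Leaving out SP600125 replicate 1, 2 or 3 left 378, 422 and 364 calls, and leaving out U0126 replicate 3 left 470. The 430A array of SP600125 replicate 1 had an actin 3' to 5' ratio of 3.66, against 1.62 for U0126 replicate 1 and 2.47 for control replicate 1, while the 430 2.0 arrays lay between 1.58 and 1.75. The part of this ratio in the results was not tested. With the 430 2.0 arrays alone, where the ratios were alike, 205 probe sets were called higher and 140 lower.

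**Figure D1:**
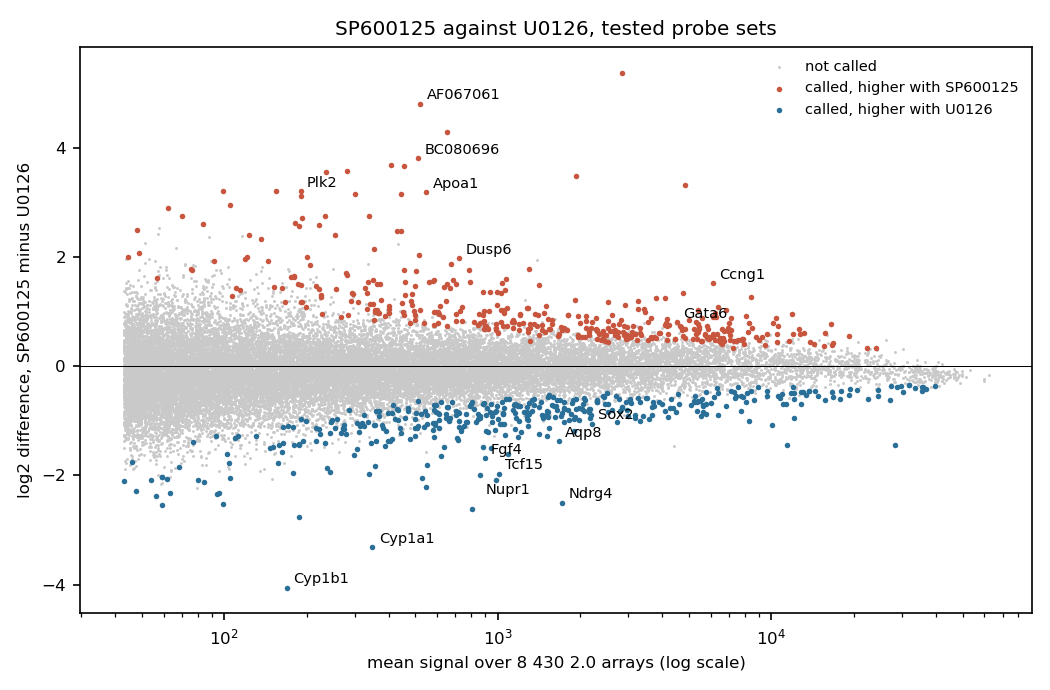
Log2 difference between SP600125 and U0126 (vertical axis) against mean signal over the 8 430 2.0 arrays (horizontal axis, log scale) for 27022 tested probe sets. Red points are the 389 called higher with SP600125 and blue points the 402 called higher with U0126, and the named genes reach from 4.81 for AF067061 to -4.05 for Cyp1b1.

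Markers of the blastocyst lineages were measured in every sample. Over the 9 SP600125, U0126 and control samples, 15 of 19 measured trophectoderm markers, 19 of 20 epiblast markers and 4 of 11 primitive endoderm factors had signals of at least 200 in every sample. Krt8, a keratin of the trophectoderm, ranged from 12077 to 40703, and Pou5f1, the pluripotency factor OCT4, from 905 to 4089. Markers of cumulus and granulosa cells were dim on the 430 2.0 arrays, with 12 of 13 under 200. Their summed signal on the 430 2.0 arrays was 734 and 999.7 with SP600125 and 1011 and 1173 with U0126. In replicate 1, on the other array types, the sum was larger, at 4079 with SP600125, 4279 with U0126 and 4435 in the control. For uterus and oviduct markers the sums were 740.1 and 804 with SP600125 and 847 and 974 with U0126. Blood and immune cell markers summed to 2107 and 2176 with SP600125 and 1147 and 1529.7 with U0126, with 8 of 11 under 200. Laptm5, a lysosomal membrane protein of blood cells that leads this sum, was called higher with SP600125 (1.54 ± 0.25), and it was the only called member of these 3 lists. This call rested on a single probe set, of the _x_at class, and the other 3 tested Laptm5 probe sets, all dimmer, were at 0.21, -0.34 and 0.51 and were not called.

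None of the genes of the kinases that the inhibitors are named for was called at the transcript level. Mapk8, which encodes JNK1, gave signals of 512, 378 and 197 with SP600125 and 407, 320.4 and 323 with U0126, and the groups overlapped (-0.04 ± 0.25, adjusted p = 0.952). For Mapk9, which encodes JNK2, the difference was -0.09 ± 0.17. For Map2k1 and Map2k2, which encode MEK1 and MEK2, it was 0.04 ± 0.12 and -0.53 ± 0.23, none of them called. Map2k2 had an unadjusted limma p of 0.0304, and its difference came from replicate 1, at -1.58. SP600125 replicates 2 and 3 lay -0.015 and -0.005 from the U0126 mean of their array type. The signs for Mapk8, Mapk9 and Map2k1 turned under other scalings or when samples were left out. Of 19 tested genes of the MAP kinase cascades 1 was called, Mapkapk3, a kinase downstream of p38. It read 3861, 1127 and 902 with SP600125 and 2946, 348 and 457 with U0126 (1.0 ± 0.22, adjusted p = 0.0171). This call was lost without SP600125 replicate 2 or 3 or U0126 replicate 2. An inhibitor acts on the kinase protein, so these transcript values do not measure inhibition.

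Among genes transcribed in response to ERK, the phosphatase gene Dusp6 had the largest difference. DUSP6 dephosphorylates ERK and is a feedback inhibitor of the pathway. Its signals were 316, 621 and 1343 with SP600125 and 61, 267 and 209 with U0126, so every SP600125 sample lay above the U0126 samples of its array type. The difference was 1.98 ± 0.29 (adjusted p = 0.00105) and held its call in all 6 omissions of a sample and all 11 other settings. Against the controls, which both inhibitors share, Dusp6 was at -0.27 with SP600125 and -2.26 with U0126. Dusp4, a nuclear phosphatase of ERK and JNK, read 1918, 484 and 569 with SP600125 and 1721, 321 and 209 with U0126. These did not overlap within array types, but the difference of 0.71 ± 0.23 was not called (adjusted p = 0.121), and both groups lay under the controls, at 4539, 1665 and 1366. Lif, a cytokine gene, had a difference of 0.79 ± 0.26 that was not called either.

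Etv5, an ETS transcription factor of FGF signalling, went the other way. It read 1724, 609.7 and 760.3 with SP600125 and 3984, 1029 and 1262 with U0126 (-0.89 ± 0.19, adjusted p = 0.0153). Its 3 probe sets shared this sign, but the dimmer ones were not called (-0.31 ± 0.33 and -0.14 ± 0.40). The call was lost on median centring and without replicate 1 of either inhibitor, SP600125 replicate 2 or U0126 replicate 3. Of 17 tested ERK feedback and output genes, 1 was therefore higher with SP600125, 1 was lower and 15 were not called. Their median difference was 0.51, beside -0.06 over all tested genes, and it stayed above 0 in all 18 alternatives, from 0.31 to 0.66. Against controls the median of the 17 was -0.27 with SP600125 and -0.35 with U0126, so both lay under the controls. Among 17 immediate early genes only Btg2 was called. Fos, a part of the AP-1 factor, was at 1.37 ± 0.46 and Jun, the substrate for which JNK is named, at -0.46 ± 0.30, both uncalled and picked after their values were seen.

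More epiblast genes were called lower than higher with SP600125. Of 20 tested, 5 were lower and 1 was higher, with a median of -0.37. Fgf4, the FGF ligand of the epiblast, had signals of 298, 719 and 432 with SP600125 and 996, 1765 and 1843 with U0126. Groups did not overlap on either array type, and the difference was -1.68 ± 0.20 (adjusted p = 0.000249), with the same sign in all 4 tested probe sets and calls in 3. Sox2, an HMG-box factor of the epiblast that acts with OCT4, read 415, 1512 and 1742 with SP600125 against 1004, 2930.2 and 3384 with U0126 (-1.05 ± 0.14, adjusted p = 0.000582). Fgf4 and Sox2 kept their calls in every omission and setting that tested them. On the shared control scale Fgf4 was at -0.35 with SP600125 and 1.33 with U0126, and the values for Sox2 were -0.18 and 0.87.

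Tdgf1, a co-receptor of Nodal, and Bmp4, a signalling ligand of the TGF-beta family, were lower as well (-0.71 ± 0.14 and -1.02 ± 0.21). The call of Bmp4 was lost without SP600125 replicate 1 or U0126 replicate 1 or 2. Nanog was the exception, and is described because its value stood out. This homeobox factor of the epiblast read 1929.5, 2858 and 2824 with SP600125 and 1161, 1883 and 1047 with U0126, with no overlap within array types (0.92 ± 0.20, adjusted p = 0.0182). Pou5f1 did not pass (-0.39 ± 0.16). Only Fgf4, Sox2 and Nanog of the list stayed called after median centring. Leaving out a single sample left 3 to 5 epiblast genes lower, the fewest without replicate 1 of either inhibitor. Nanog's call was lost without any of the SP600125 samples or U0126 replicate 3.

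Tcf15, a helix-loop-helix factor of epiblast cells and early mesoderm, was among the largest differences outside the lists. Its signals were 145, 540.1 and 481 with SP600125 and 778, 1961 and 1631 with U0126, with the controls between them on the 430 2.0 arrays at 902 and 1104. The difference was -1.97 ± 0.22 (adjusted p = 0.000125), and it held in all omissions and settings. Cdx1, a homeobox gene that responds to Wnt signals, read 47.2, 146 and 80.2 with SP600125 and 356, 335 and 318 with U0126 (-1.86 ± 0.35, adjusted p = 0.00775). SP600125 signals thus lay under the lowest U0126 signal of each array type. Cdx1 and Fzd5, a Wnt receptor (-0.76 ± 0.14), were the 2 called genes among 12 tested Wnt targets and pathway genes. A dimmer probe set of Fzd5 had the opposite sign and was not called (1.46 ± 0.45). The call of Fzd5 was lost on median centring and with no intensity trend, and that of Cdx1 on the 430 2.0 arrays alone.

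Most primitive endoderm factors had lower values with SP600125, but Gata6 was called in the other direction. Of 11 tested, 2 were lower with SP600125, 1 was higher and 8 were not called, with a median of -0.77. The difference was negative for 9 and positive for 2, with 7 lower and 1 higher at an unadjusted p under 0.05. Gata6, an early factor of this lineage, was the higher one. It read 3815, 5279 and 5178 with SP600125, 2215, 2744 and 3173 with U0126 and 2719.6, 4895 and 5088 in controls. SP600125 signals lay above those of U0126 on each array type, and the difference was 0.81 ± 0.12 (adjusted p = 0.00122), with a call in all 6 omissions. All 3 Gata6 probe sets had this sign, but the dimmer ones were small and not called (0.25 ± 0.17 and 0.28 ± 0.21). The lower ones were Foxq1, a forkhead factor (-1.47 ± 0.25, adjusted p = 0.00313), and Pdgfra, the PDGF receptor that marks primitive endoderm (-0.77 ± 0.15, adjusted p = 0.0106).

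Foxq1 had signals of 150.3, 306 and 264 with SP600125 and 526, 609 and 908 with U0126, against 948, 1035 and 1114 in controls, and kept its call in all 6 omissions. This call rested on a probe set of the _x_at class, and a dimmer one had the same sign and was not called (-0.82 ± 0.29). With probe sets ending in _x_at or _s_at left out, 1 primitive endoderm factor was called lower and 1 higher. For Pdgfra the brightest probe set read 324, 1198 and 999.8 with SP600125 and 614, 1609 and 2018 with U0126. A dimmer probe set of the same gene had the opposite sign, at 1.02, and the call was lost without SP600125 replicate 1 or 3, without U0126 replicate 3 and on median centring. Foxa2, Sox17, Sox7 and Gata4, later factors of the lineage, had values from -0.81 to -0.52 that were not called. Against controls, the median of the 11 was -1.19 with SP600125 and -0.55 with U0126. Fewer primitive endoderm cells and less RNA per cell cannot be told apart in samples of whole blastocysts.

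Genes of the basement membrane, which primitive endoderm and trophectoderm cells secrete, included 4 lower and none higher of 20 tested, with 7 lower and 0 higher at an unadjusted p under 0.05, and a median of -0.34. Col4a1 and Col4a2, the chains of type IV collagen, had differences of -0.80 ± 0.16 and -1.0 ± 0.17. Col4a2 read 387, 350 and 396 with SP600125 and 746, 672 and 895 with U0126, with 983 to 1110 in the controls, so both inhibitor groups lay under the controls and SP600125 lay lowest. Lama1, a laminin chain, followed the same order (-0.97 ± 0.21). Fn1, fibronectin, read 2058, 1688 and 1749 with SP600125 and 3828, 3293 and 4141 with U0126 (-1.03 ± 0.14, adjusted p = 0.000527), and there the U0126 samples lay above the controls. Fn1 and Col4a2 kept their calls in all omissions and settings. Col4a1 lost its call without replicate 3 of either inhibitor, and Lama1 without replicate 1 of either inhibitor, SP600125 replicate 2 or U0126 replicate 3, so that 2 of the 20 were called without U0126 replicate 3.

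Apoa1, the main apolipoprotein of high-density lipoprotein and a product of visceral endoderm, was among the largest differences. It read 625, 1715 and 1240.4 with SP600125 and 20.1, 328 and 152 with U0126, with controls at 106, 605 and 257. All 4 of its tested probe sets were called in this direction, and the difference was 3.19 ± 0.48 (adjusted p = 0.00145). Relative to controls it was at 2.04 with SP600125 and -1.15 with U0126. Apoe, another apolipoprotein, was lower with SP600125 (-0.82 ± 0.17, adjusted p = 0.0126), a call lost without SP600125 replicate 3 or U0126 replicate 1 (-0.55) and on median centring. These were the 2 called of 9 tested genes of visceral endoderm and its uptake apparatus. Amn and Cubn, which form the cubilin receptor, differed by -0.08 ± 0.26 and -0.82 ± 0.37 and were not called.

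Trophectoderm markers showed 1 call among 18 tested. Krt7, a keratin, was lower with SP600125 (-0.76 ± 0.15, adjusted p = 0.0115), with signals of 948, 1622 and 1348 against 1565, 2553 and 2558, and lost its call without SP600125 replicate 3 and on median centring. Cdx2, the defining factor of the lineage, was at 0.33 ± 0.16 and Krt8 at -0.06 ± 0.09, both uncalled. Of 10 tested genes for filling the cavity, Atp1b1, the beta subunit of the sodium pump, was higher with SP600125 (0.89 ± 0.11, adjusted p = 0.000401). Aqp8, a water channel, was lower, with signals of 300.4, 756 and 915 against 887, 2113 and 2012 with U0126 and 1092, 1977 and 2052 in controls. The SP600125 samples lay under both other groups, the difference was -1.37 ± 0.15 (adjusted p = 0.000125), and both calls held in all 6 omissions. The junction gene Tjp3, a scaffold of tight junctions, was the only call of 20 in its list (-0.86 ± 0.19), and 5 of the 6 omissions ended it, all but that of U0126 replicate 2.

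**Figure D2:**
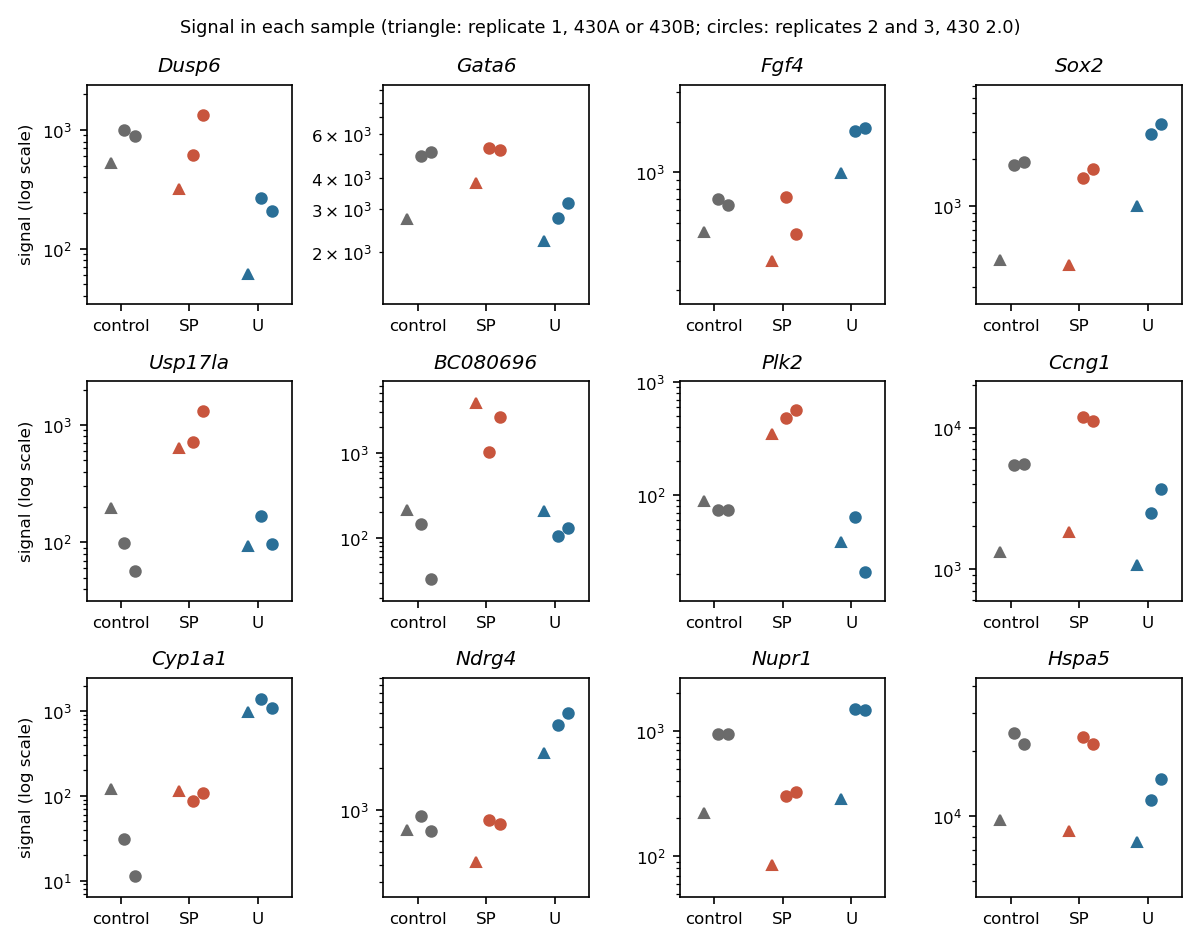
Signal of 12 genes in each control, SP600125 (SP) and U0126 (U) sample on a log scale. Triangles are replicate 1 on the 430A or 430B array and circles replicates 2 and 3 on the 430 2.0 array, so heights compare only between points of 1 shape, as for Dusp6 at 621 and 1343 against 267 and 209.

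Among the largest differences higher with SP600125 were those of transcripts that are normally abundant in cleavage-stage embryos after the zygotic genome is activated and scarce by the blastocyst stage. Of 17 listed genes 8 were measured by a probe set annotated to that gene alone, and all 8 were called higher with SP600125, from 2.61 to 4.81. Their passing the signal filter rested in part on SP600125, since 5 of the 8 passed when the SP600125 arrays were left out of the filter. Tcstv1, Tcstv3 and Spz1 passed only through the SP600125 arrays. The count of 8 and the list medians thus include genes that were tested because SP600125 was high. AF067061 read 654, 1137 and 2431 with SP600125, 8.3, 181 and 8.3 with U0126 and 15.7, 148 and 8.5 in controls. Only the SP600125 samples were high, and the difference was 4.81 ± 0.73 (adjusted p = 0.00152). The only tested probe set of AF067061 was of the _x_at class. With probe sets ending in _x_at or _s_at left out, 7 genes of the list were tested and 7 were called higher. BC080696 read 3853, 1015 and 2612 with SP600125 and 209, 106 and 131 with U0126, with no overlap on either array type (3.81 ± 0.42, adjusted p = 0.000125).

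Usp17la, a member of a family of deubiquitinating enzymes, read 639, 724 and 1318 with SP600125 and 92.7, 168 and 95.9 with U0126 (2.76 ± 0.41, adjusted p = 0.00126). Zfp352, a zinc finger gene, was at 2.63 ± 0.45, and Tcstv1 and Tcstv3, genes named for their cleavage-stage expression, at 2.96 ± 0.53 and 2.75 ± 0.63. Tcstv3 was dim, at 127, 131 and 342 with SP600125 against 14.4, 41.8 and 3.4 with U0126, where the last value lies under the added constant. Gm20767 and Spz1 completed the list (3.55 ± 0.75 and 2.61 ± 0.64). On the 430 2.0 arrays alone 5 of the 8 were called, and over the 6 omissions 5 to 7 were, the fewest without SP600125 replicate 2 or 3. AF067061, BC080696, Usp17la, Zfp352 and Tcstv1 kept their calls in every omission, while Tcstv3 kept its call in 1 of 6, that of U0126 replicate 2, and Gm20767 lost its call without replicate 2 of either inhibitor or SP600125 replicate 3.

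Against controls the median of the 8, with Tcstv1, Tcstv3 and Spz1 included, was 3.05 with SP600125 and -0.06 with U0126. Further genes with large differences in the same direction were Pramel18 of the PRAME-like family (3.12 ± 0.79), D13Ertd608e (2.75 ± 0.36) and Gm11544 (2.72 ± 0.50). D13Ertd608e read 692, 666 and 683 with SP600125 and 108, 57.6 and 116 with U0126, and held its call in all omissions. Its only tested probe set was of the _s_at class. Pramel18 lost its call in 5 of the 6 omissions, all but that of U0126 replicate 2, and Gm11544 without SP600125 replicate 3. Probe sets annotated to several genes are not named by gene. The largest difference among these was 5.38 ± 0.82, from signals of 19081, 5246 and 14722 with SP600125 and 622, 294 and 93.1 with U0126. By contrast, none of 10 tested oocyte and maternal-effect genes was called by limma, with 1 at an unadjusted p under 0.05. Their median was -0.13, which turned positive under median centring.

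Targets of p53, the transcription factor of the DNA damage response, were higher with SP600125 in 7 of 17 tested genes and lower in none, with 8 higher and 1 lower at an unadjusted p under 0.05. Their median was 0.53, and 0.23, 0.86 and 0.72 in replicates 1, 2 and 3. Plk2, a polo-like kinase gene, read 348, 484 and 571 with SP600125, 38.6, 64.4 and 20.7 with U0126 and 89.4, 74.2 and 74 in controls (3.21 ± 0.40, adjusted p = 0.000408). Ccng1, cyclin G1, was far brighter, with 1832, 11866 and 11063 against 1069.9, 2508 and 3668 (1.53 ± 0.19, adjusted p = 0.000407), and all 3 of its probe sets were called. In both genes the SP600125 samples lay above, and the U0126 samples below, every control on the same array type.

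Pmaip1, which encodes the BH3-only protein NOXA of the apoptosis pathway, and Btg2, an antiproliferative gene that is also an immediate early gene, had differences of 1.77 ± 0.28 and 1.54 ± 0.22. Cdkn1a, the cell cycle inhibitor p21, was at 1.10 ± 0.23, with Trp53inp1 at 0.88 ± 0.19 and Zmat3 at 1.13 ± 0.29. Mdm2, the ubiquitin ligase of p53, was not called (0.12 ± 0.26), nor was Bbc3, the BH3-only gene PUMA (-0.28 ± 0.42). Plk2, Ccng1, Pmaip1 and Btg2 kept their calls in every omission and setting. In all, 4 to 7 of the 17 were called in the omissions, 4 without SP600125 replicate 2 or 3 or U0126 replicate 2. Against controls the median of the 17 was 0.43 with SP600125 and -0.24 with U0126. Pmaip1 was the only call among 16 tested apoptosis genes.

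Cell cycle genes showed small differences. Of 22 tested genes of the G1 to S transition and DNA replication 3 were higher, Rrm1 (0.73 ± 0.11) and Rrm2 (0.59 ± 0.12), the subunits of ribonucleotide reductase, and Cdc6 (0.53 ± 0.13), a replication licensing factor. Rrm1 read 4272, 5562 and 5734 with SP600125 and 2754, 3209.6 and 3329.9 with U0126, with no overlap within array types, and kept its call in all omissions. Of 21 tested G2 and M phase genes 2 were higher, Cdc20 (0.78 ± 0.17), an activator of the anaphase-promoting complex, and Mad2l1 (0.48 ± 0.11), a spindle checkpoint gene. The G2 and M list had a median of 0.31, positive in all 18 alternatives. At an unadjusted p under 0.05, 11 of its genes were higher and 0 lower, against 5 higher and 1 lower in the G1 to S list. The Cdc6 and Mad2l1 calls were lost in 5 of the 6 omissions, all but that of U0126 replicate 2, and that of Cdc20 without replicate 1 of either inhibitor or SP600125 replicate 3. Cdc20 was at 0.50 without U0126 replicate 1. Rrm2 lost its call without SP600125 replicate 1.

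Genes of the unfolded protein response in the endoplasmic reticulum were higher with SP600125 in 7 of 19 tested genes and lower in none, with 11 higher and 1 lower at an unadjusted p under 0.05. In this response ATF6 and XBP1 raise chaperones through the endoplasmic reticulum stress element of their promoters. The list median was 0.43, and 0.18, 0.63 and 0.60 in replicates 1, 2 and 3. Hspa5, the chaperone BiP, read 8563, 23180.3 and 21479.5 with SP600125, 7574, 11873 and 14799 with U0126 and 9642, 24346 and 21537 in controls. SP600125 samples lay above U0126 samples on both array types, and the difference was 0.56 ± 0.12 (adjusted p = 0.0163), with a dimmer probe set at -0.16 that was not called. Pdia6, a disulphide isomerase, was at 0.68 ± 0.14, Manf, a secreted protein of the reticulum, at 0.67 ± 0.13, and Dnajb11, a co-chaperone of BiP, at 0.65 ± 0.14. Xbp1 itself was at 0.53 ± 0.13, Creld2 at 0.59 ± 0.15 and Dnajb9 at 0.56 ± 0.15, the rest of the 7.

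Relative to controls, the 19 genes had a median of -0.02 with SP600125 and -0.45 with U0126, so SP600125 samples sat near the controls. Hspa5 was at -0.08 and -0.64 on that scale. The number called higher fell to 5, 2 and 1 without SP600125 replicate 1, 2 or 3, and it was 8, 2 and 4 without U0126 replicate 1, 2 or 3. It was 8 on the 430 2.0 arrays alone, 1 when the 6 samples of the comparison were fitted alone and 0 with no intensity trend. Without U0126 replicate 2, 1 gene of the list was also called lower. Promoter sequence from RefSeq (GRCm38.p6, 250 bases before to 50 after the annotated start) was searched on both strands for the stress element, CCAAT and CCACG with any 9 bases between them. It was found for 7 of the 16 list genes with a sequence and for 0.119% of all 32851 promoters. This describes the list, and the part of the element in the differences was not tested. Of the 7 genes 3 were called, beside 7 of all 19 tested list genes. These 3 promoters are shown, with the match in capitals, for Hspa5 (chr2:34771840-34772139, plus strand), Pdia6 (chr12:17266339-17266638, plus strand) and Creld2 (chr15:88819396-88819695, plus strand). In Creld2 the match is on the opposite strand.
Hspa5: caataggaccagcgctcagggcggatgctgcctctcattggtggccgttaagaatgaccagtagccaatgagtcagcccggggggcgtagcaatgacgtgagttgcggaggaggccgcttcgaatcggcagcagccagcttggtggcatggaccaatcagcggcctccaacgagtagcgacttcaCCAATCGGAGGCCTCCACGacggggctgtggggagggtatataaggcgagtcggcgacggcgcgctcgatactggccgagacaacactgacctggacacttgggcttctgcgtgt
Pdia6: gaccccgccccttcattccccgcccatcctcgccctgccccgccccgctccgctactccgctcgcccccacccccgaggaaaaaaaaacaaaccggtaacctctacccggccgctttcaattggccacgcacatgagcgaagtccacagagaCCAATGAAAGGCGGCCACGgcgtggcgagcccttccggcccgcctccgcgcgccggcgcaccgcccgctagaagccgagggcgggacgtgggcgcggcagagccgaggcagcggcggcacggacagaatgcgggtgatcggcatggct
Creld2: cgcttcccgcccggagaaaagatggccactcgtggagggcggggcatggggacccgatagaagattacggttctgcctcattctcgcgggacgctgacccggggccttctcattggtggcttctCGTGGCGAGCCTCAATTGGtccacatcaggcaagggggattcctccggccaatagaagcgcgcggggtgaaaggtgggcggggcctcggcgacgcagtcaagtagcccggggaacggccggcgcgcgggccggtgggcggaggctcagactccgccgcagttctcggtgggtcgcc

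A second stress programme, the ATF4 or amino acid response, went in the opposite direction. ATF4 raises amino acid synthesis and transport genes when amino acids are scarce. Of 21 tested genes 5 were lower with SP600125 and none higher, with 13 lower and 0 higher at an unadjusted p under 0.05, and a median of -0.47. Nupr1, a small chromatin-associated stress protein, had the smallest adjusted p of the named genes. It read 84.3, 304 and 326 with SP600125, 284, 1479 and 1465 with U0126 and 222, 951 and 935 in controls. The controls lay between the inhibitors on each array type, and the difference was -1.99 ± 0.20 (adjusted p = 8.14e-05), with both probe sets called and the call kept in every omission and setting.

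Phgdh, the first enzyme of serine synthesis, was at -0.68 ± 0.15, Aars, alanyl-tRNA synthetase, at -0.55 ± 0.12, and Atf4 at -0.49 ± 0.11. Mthfd2, an enzyme of mitochondrial folate metabolism, was the fifth (-0.79 ± 0.18). After median centring 1 of the 5 stayed called, and in the omissions 1 to 5 did, with 1 left without SP600125 replicate 1 or U0126 replicate 3, 2 without SP600125 replicate 2 or U0126 replicate 1, and 3 without SP600125 replicate 3. The core of the amino acid response element, TGATGNAA, was found on either strand in the promoters of 8 of 20 list genes with a sequence and in 3.97% of all promoters. Of the 8, 7 were tested and 2 were called, Nupr1 and Aars, beside 5 of all 21 tested list genes. The part of this element in the differences was not tested. The Nupr1 promoter (chr7:126625421-126625720, minus strand) is shown as the gene with the largest difference of this list, with the match, on the opposite strand, in capitals.
Nupr1: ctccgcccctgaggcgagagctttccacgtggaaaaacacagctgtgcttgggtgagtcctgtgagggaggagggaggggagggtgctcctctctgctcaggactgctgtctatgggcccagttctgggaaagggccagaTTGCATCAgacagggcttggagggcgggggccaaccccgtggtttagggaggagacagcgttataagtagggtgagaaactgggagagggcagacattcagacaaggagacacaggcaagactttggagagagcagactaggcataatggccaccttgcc

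Cyp1b1 and Cyp1a1, targets of the aryl hydrocarbon receptor, had the largest called differences in favour of U0126. This receptor is activated by planar aromatic compounds and binds a response element whose core is GCGTG, raising genes that metabolise such compounds. Cyp1a1, a cytochrome P450 and the classical target, read 114, 87.7 and 109 with SP600125, 963, 1385 and 1079 with U0126 and 122, 30.9 and 11.4 in controls. Only the U0126 samples were high, and the difference was -3.30 ± 0.62 (adjusted p = 0.00741). Cyp1b1, a related enzyme, read 69.7, 2.8 and 2.9 with SP600125 and 201, 589.9 and 689.7 with U0126 (-4.05 ± 0.76, adjusted p = 0.00741). In SP600125 replicates 2 and 3 it lay under the added constant, so that the size of its difference depends on that constant, from -5.42 to -2.82 over the alternatives.

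Ahrr, the repressor of the receptor, was lower with SP600125 as well (-2.32 ± 0.57, adjusted p = 0.0365), with 21.7, 20.8 and 68 against 137, 281 and 251. Ahrr lost its call without SP600125 replicate 1 or 2 or U0126 replicate 2 or 3, and with no filter on dim probe sets. Cyp1a1 lost its call without SP600125 replicate 1, while that of Cyp1b1 held in all omissions. With no intensity trend none of the 7 tested genes was called. Cyp1b1 and Ahrr passed the signal filter only through the U0126 arrays, so their being tested already rested on the group where they are high. The other 4 of the 7 tested genes, among them the receptor gene Ahr (0.06 ± 0.30), its partner Arnt (-0.49 ± 0.29) and the target Tiparp (0.12 ± 0.18), were not called. Relative to controls Cyp1a1 was at 1.15 with SP600125 and 4.46 with U0126, and Cyp1b1 at -0.72 and 3.33. The core GCGTG was found on either strand in the promoters of 5 of 8 list genes with a sequence, all 3 called genes included, and in 32.4% of all promoters, so it is a common run of letters. The promoters of Cyp1a1 (chr9:57697363-57697662, plus strand) and Cyp1b1 (chr17:79715012-79715311, minus strand) are shown with the match in capitals, on the opposite strand in Cyp1b1.
Cyp1a1: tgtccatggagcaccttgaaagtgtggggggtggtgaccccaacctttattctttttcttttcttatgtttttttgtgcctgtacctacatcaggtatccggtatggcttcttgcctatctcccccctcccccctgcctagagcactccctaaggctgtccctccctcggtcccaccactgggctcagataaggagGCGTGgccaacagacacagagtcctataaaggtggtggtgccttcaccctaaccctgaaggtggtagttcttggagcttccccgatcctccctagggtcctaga
Cyp1b1: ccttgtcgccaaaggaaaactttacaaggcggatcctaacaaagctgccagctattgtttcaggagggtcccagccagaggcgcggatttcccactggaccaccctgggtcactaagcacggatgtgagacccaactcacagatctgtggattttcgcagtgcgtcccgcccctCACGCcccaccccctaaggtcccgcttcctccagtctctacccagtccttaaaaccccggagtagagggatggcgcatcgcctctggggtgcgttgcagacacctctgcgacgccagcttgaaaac

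Of 19 tested cholesterol synthesis genes 6 were lower with SP600125 and none higher, with 11 lower and 0 higher at an unadjusted p under 0.05, and a median of -0.44 and replicate medians of -0.34, -0.49 and -0.47. Cyp51, a demethylase of lanosterol, read 356, 974 and 1025 with SP600125 and 804, 1882 and 1555 with U0126, with no overlap within array types (-0.89 ± 0.17, adjusted p = 0.00871). Sqle, squalene epoxidase, was at -0.65 ± 0.12, Idi1, an isomerase of the isoprenoid steps, at -0.65 ± 0.13, and Hmgcs1, which starts the pathway, at -0.52 ± 0.10. Of 17 tested fatty acid synthesis genes 3 were lower and none higher, with 9 lower and 1 higher at an unadjusted p under 0.05. These were the desaturases Scd2 (-1.08 ± 0.16) and Scd1 (-0.58 ± 0.11) and fatty acid synthase, Fasn (-0.83 ± 0.17).

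Scd2 read 1898, 5758 and 6294 with SP600125 and 5251, 11406 and 10981 with U0126, with 3796, 10174 and 13527 in controls, so that U0126 lay near the controls. The cholesterol list had a median of -0.54 against controls with SP600125 and -0.16 with U0126. These small differences depended on the scaling and the model. With median centring 0 of the 6 cholesterol genes and 1 of the 3 fatty acid genes stayed called. With no intensity trend 0 genes of either list were called, and on the 430 2.0 arrays alone 2 of each were lower. Both list medians nevertheless stayed negative in all 18 alternatives. In the omissions 2 to 6 cholesterol genes were called, the fewest without SP600125 replicate 2. Of the fatty acid genes 2 to 4 were.

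Outside these lists, Ndrg4, of the N-myc downstream-regulated family, was lower with SP600125. It read 421, 850.2 and 798 with SP600125, 2598, 4124 and 5027 with U0126 and 717, 911 and 706 in controls, a difference of -2.50 ± 0.28 (adjusted p = 0.000125). The U0126 samples stood apart from both other groups, and the call held in every omission and setting. Bhlhe40, a helix-loop-helix repressor, was at -2.21 ± 0.46, with a replicate 1 signal of 14 with SP600125 against 440.0 with U0126. That pair gave -4.09 and carried much of the difference, which was -1.32 without SP600125 replicate 1, but the call was lost only without U0126 replicate 1 and with no intensity trend. Barx1, a homeobox gene (-2.52 ± 0.51), Grik3, a glutamate receptor subunit (-1.97 ± 0.43), Lrrc34 (-1.94 ± 0.38) and Med18, a Mediator subunit (-1.81 ± 0.47), completed the 12 largest. Each of the last 4 lost its call in 1 to 3 of the omissions, U0126 replicate 3 among them for Barx1, Lrrc34 and Med18. Without SP600125 replicate 2 the difference of Med18 was -0.94. Barx1 passed the signal filter only through the U0126 arrays, where it is high.

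Grb10, an imprinted gene whose product restrains insulin and IGF receptor signalling, was higher with SP600125. Signals were 1256, 1642 and 2105 with SP600125, 476, 771 and 699.7 with U0126 and 513, 560.2 and 932 in controls. The SP600125 samples lay above both other groups (1.34 ± 0.19, adjusted p = 0.000832), in all omissions and settings. Igf2, an imprinted growth factor gene, was also higher (0.74 ± 0.19, adjusted p = 0.0467), but this call was lost in every omission. These were the 2 calls among 15 imprinted genes. In the Hippo list of 17, Ajuba, a LIM protein that restrains LATS kinases, was lower (-1.28 ± 0.19, adjusted p = 0.00152), as was Tead2 (-0.86 ± 0.21), and the coactivator Yap1 was higher (0.50 ± 0.12). The call of Ajuba held in all omissions. That of Yap1 was lost without SP600125 replicate 1 or 2 or U0126 replicate 1 or 2, and that of Tead2 in every omission but that of U0126 replicate 3.

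Of 18 NRF2 and glutathione genes, Gpx4 (-0.60 ± 0.09), Gsta4 (-0.60 ± 0.11) and Gpx1 (-0.54 ± 0.09), which detoxify peroxides and their products, were lower and Gsto1, a glutathione transferase, was higher (0.59 ± 0.10). A second Gsto1 probe set, almost as bright, had the opposite sign and was not called (-0.58 ± 0.21), so the direction of Gsto1 is not settled. The 3 lower ones were not called after median centring, and Gsta4 was not called without SP600125 replicate 1. In smaller counts, Slc2a1, the glucose transporter GLUT1, was the only call of 16 glycolysis genes (-0.91 ± 0.17). The lysosomal enzyme genes Ctsa (-0.64 ± 0.13) and Hexa (-0.54 ± 0.11) were the only calls of 17 lysosome genes, and both lost them without SP600125 replicate 1 and on median centring, Ctsa also without U0126 replicate 1. In the Nodal and TGF-beta list of 16, Pcsk6, a proprotein convertase that processes Nodal, was lower (-0.90 ± 0.14), as was Tdgf1. Hspa1b, an inducible heat shock protein (1.02 ± 0.26), Dnmt3l, a partner of DNA methyltransferases (-0.73 ± 0.18), and Ndufv2 of the respiratory chain (-0.48 ± 0.12) were single calls of 18, 11 and 20 genes. Each of these 3 lost its call in at least 5 of the 6 omissions, and Dnmt3l was at -0.48 without U0126 replicate 1.

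Among the other lists, none of 18 actin and SRF genes and none of 21 ribosome biogenesis genes was called by limma at an adjusted p under 0.05, with 5 and 7 at an unadjusted p under 0.05. Fgf4 was the only call of 12 FGF ligands and receptors, and Bmp4 the only call of 14 BMP genes. The medians of these 4 lists lay between -0.14 and 0.00, and each changed sign in at least 1 alternative.

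**Figure D3:**
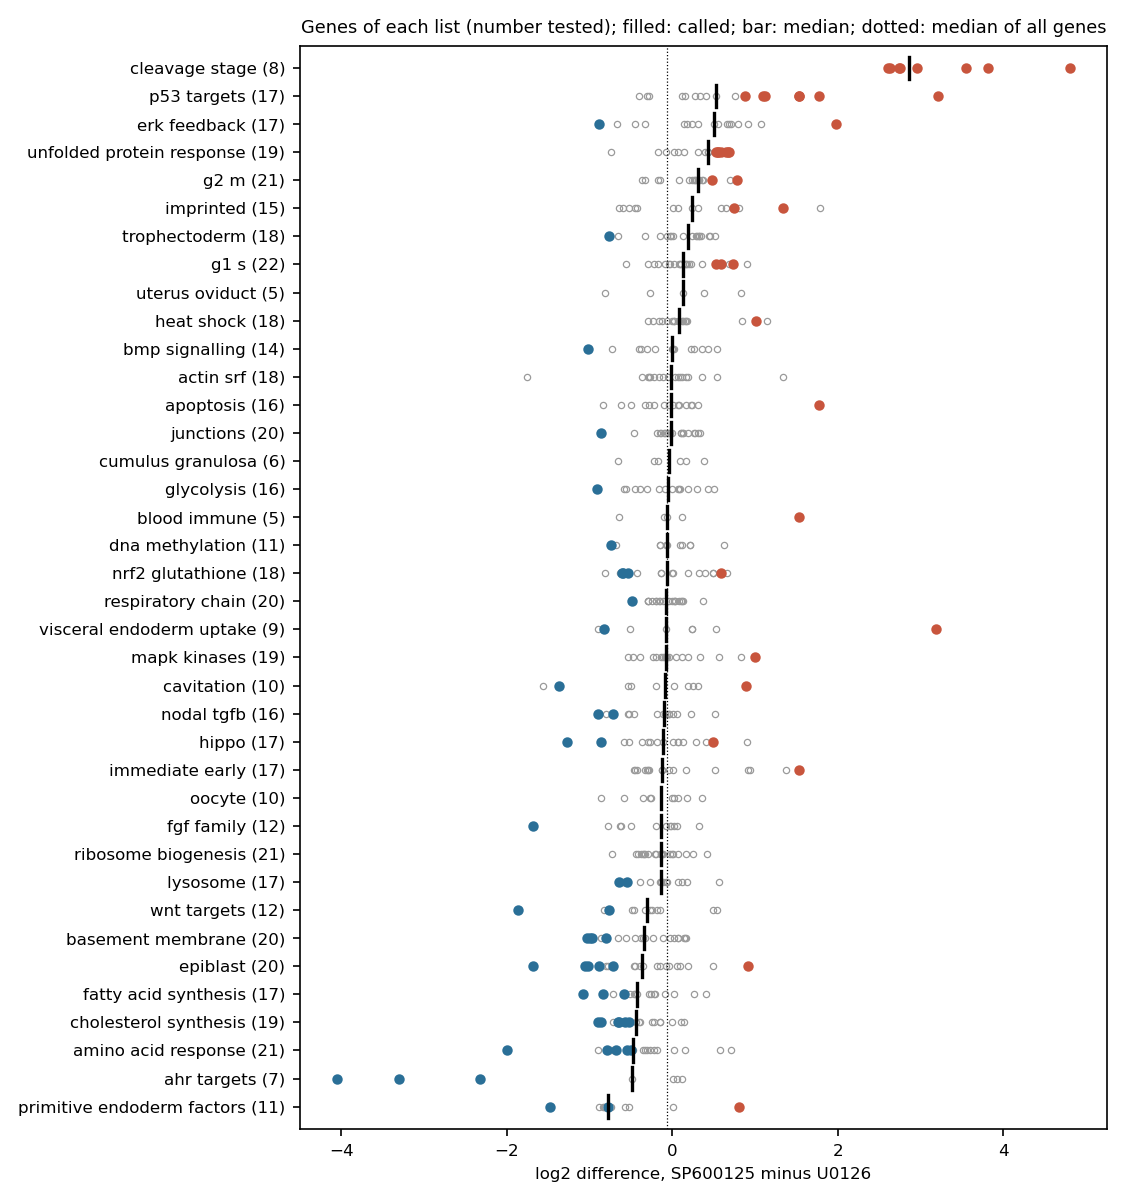
Log2 difference between SP600125 and U0126 for the tested genes of each list, with the number tested in brackets. Filled points are called, open points are not, black bars are list medians and the dotted line is the median of all genes, -0.06, with the cleavage-stage list at 2.86 and the primitive endoderm factors at -0.77 at the ends.

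Both inhibitors share the same controls, so their differences from controls are given side by side and were not related to each other. Among the 12 genes most in excess with SP600125, the difference of AF067061 from controls was 4.75 with SP600125 and -0.06 with U0126. That of Plk2 was 2.36 and -0.85, and that of Gm11544 3.74 and 1.02. For the 12 most in excess with U0126, Ndrg4 was at -0.23 with SP600125 and 2.27 with U0126, while Cdx1 was at -1.90 and -0.04. Bhlhe40 stood at -1.79 and 0.42, and Nupr1 at -1.46 and 0.54. With SP600125, AF067061, Plk2, Gm11544, Cdx1 and Nupr1 were called against controls, and with U0126 Ndrg4 was. Bhlhe40 was called with neither, and none of these genes was called with both inhibitors. Plk2, Nupr1 and Bhlhe40 had values on opposite sides of the controls. Their U0126 differences from controls were not called (limma, adjusted p = 0.421, 0.298 and 0.769).

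**Figure D4:**
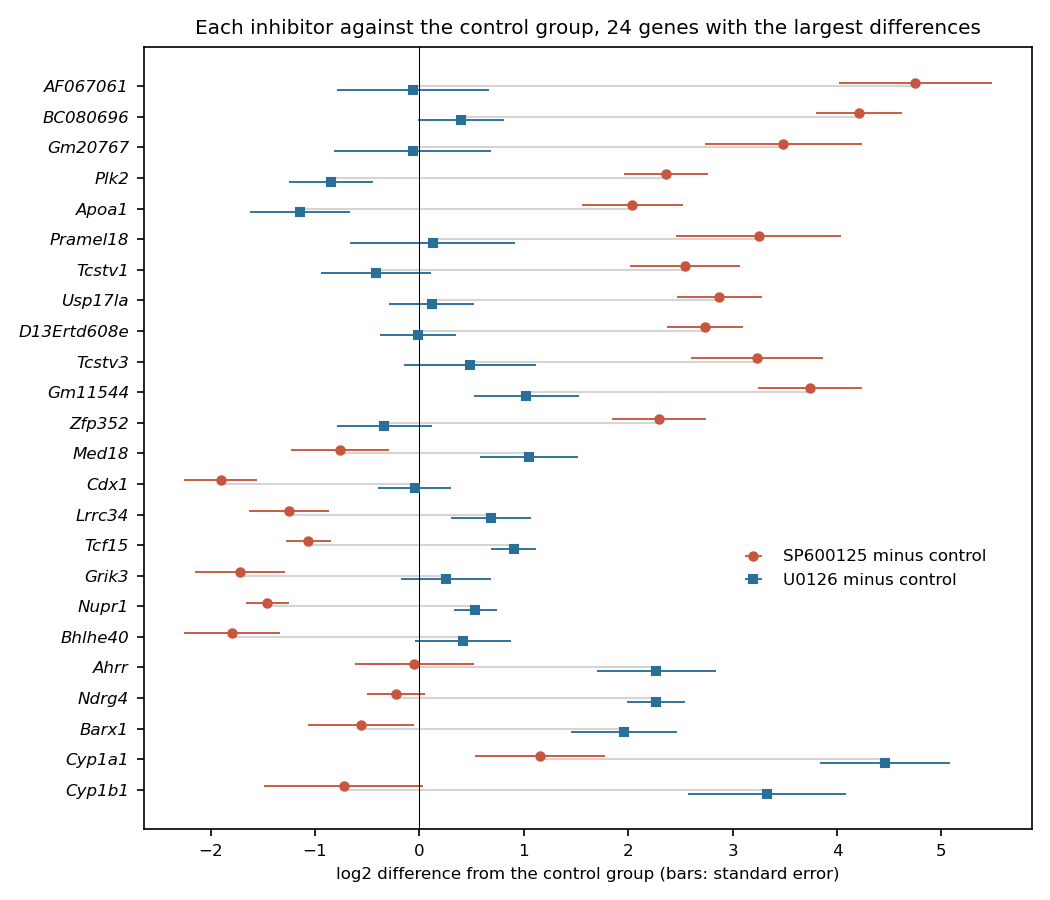
Log2 difference from the control group with SP600125 (red circles) and U0126 (blue squares) for the 12 genes with the largest difference in each direction, with bars of 1 standard error, n = 3 samples per group. Both sets of points use the same controls, and the grey line joins the inhibitors for each gene, as from 4.75 to -0.06 for AF067061.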

How the data were processed

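Array intensities were measured in 12 samples on 16 arrays. The deposited intensity values were linear signals, 1 per probe set, with a trimmed mean of 500 on every array (2% trimmed at each end), a scaling that the authors had applied to judge from the values. The scanner software, background correction and summary of probes were not given in the sources used here. For replicate 1, the 430A and 430B arrays of 1 label number were joined, and for 100 probe sets on both, the 430A value was kept.

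Values were kept on that scale, 12.6 (their 20th percentile on the 430 2.0 arrays) was added, and log2 was taken. Of 45037 probe sets, 34945 named 1 gene in the platform annotation, 932 several and 9160 none, with symbols updated through Entrez identifiers. Probe sets reaching the 40th percentile of mean 430 2.0 signal, 42.9, were tested (27022 probe sets, 12614 genes). The model was limma 3.58.1 in R 4.3.3, two-sided, with 4 groups, the array type as a term and an intensity trend (7 residual and 9.7 prior degrees of freedom), tested on simulated data before use. Array signal carries no count, so the number of arrays limits the precision.

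Replicate numbers were not used to pair the samples. The correlation of replicate 3 minus replicate 2 between SP600125 and U0126 was 0.042 across probe sets, and 0.018 to 0.088 over the 6 pairs of groups. This check takes in replicates 2 and 3 only and many dim probe sets, so it cannot exclude a shared culture or batch.

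Named genes were the 12 largest called differences in each direction, with a signal of at least 200 in the higher group and no overlap, no more than 4 called genes per list, the 4 kinase genes with Dusp6 and Dusp4, and the 4 largest moderated t of the primitive endoderm, ERK feedback and aryl hydrocarbon receptor lists. Other genes were named after their values were seen. The comparison and the gene lists were chosen with earlier results of these data known, so a list's direction is not independent evidence. Alternatives were the added constant, the filter, the scaling, the replicate block, the samples fitted, the trend, probe sets ending in _x_at or _s_at, averaging over probe sets of a gene and each SP600125 or U0126 replicate left out. Promoters came from RefSeq (GRCm38.p6).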

Additional observations from a re-analysis of the deposited data

How the results depend on the processing

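The 791 calls became 600 to 1024 under 7 settings (added constants of 1 and 50, no filter, a filter at the 60th percentile, median centring, quantile normalization, and no probe sets ending in _x_at or _s_at). With the replicate number as a block, for which the pairing check found only small correlations, 916 were called (450 higher with SP600125, 466 lower). Median centring left 112 calls lower with SP600125. Fitting the 6 samples alone gave 410 calls (204 higher, 206 lower), the 430 2.0 arrays alone 345 (205 higher, 140 lower) and no intensity trend 130 (67 higher, 63 lower). Listed genes called fell from 84 to 55 on the 430 2.0 arrays alone and to 23 with no trend. Leaving out 1 sample gave 364 to 715 calls, 168 to 359 higher and 181 to 356 lower, and 52 to 72 listed genes. Fewer samples entered the 6-sample, 430 2.0 and left-out fits. The cause of the other changes was not tested.

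Of 83 called named genes, 39 kept their call in all 6 omissions, 56 under median centring and 25 in every omission and setting that tested them, and none changed sign. Signs turned only for uncalled kinase genes. Mapk9 was at 0.058 under median centring and ranged from -0.22 (without U0126 replicate 1) to 0.056 (without U0126 replicate 2) when 1 sample was left out, turning also without SP600125 replicate 3 (0.027). Mapk8 was at 0.10 under median centring and 0.036 under quantile normalization, and ranged from -0.24 (without SP600125 replicate 2) to 0.24 (without SP600125 replicate 3), with 0.01 and 0.017 without U0126 replicates 2 and 3. Map2k1 ranged from -0.055 (without U0126 replicate 2) to 0.12 (without U0126 replicate 1). Signals near the added constant limit the size of differences in dim probe sets.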
